A study of Mus musculus with 6 samples.

Results

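The antigen presentation genes examined here were 10 genes chosen by name, of the 34591 gene rows in the count tables: the class I genes H2-K1, H2-D1, B2m, Tap1, Tapbp and Nlrc5, and the class II genes Cd74, H2-Aa, H2-Ab1 and H2-Eb1. All 10 were found and all 10 passed the filter on low counts, which left 16768 genes to be tested. Total RNA came from mouse tumours that model the WNT type of medulloblastoma, a cancer of the hindbrain. By label, 3 libraries are the sh2-Ift88 model, whose name points to a hairpin against Ift88, a transport subunit needed to build primary cilia, and 3 are the control model. The series title names cilia, translation and the cell cycle, so these genes lie outside its stated subject. The sources used here do not state strain, age, how the hairpin was delivered or whether libraries came from separate animals. All p-values therefore measure the spread between these libraries, which may in part be technical.

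Class I molecules sit on most nucleated cells and show peptides made inside the cell. Their heavy chains pair with beta-2 microglobulin, and the peptides reach them through the TAP transporter. Class II molecules are largely kept to macrophages, dendritic cells and B cells, and show peptides from swallowed material. The invariant chain holds them until a peptide is loaded. In the healthy brain both classes are low, microglia are the main resident cells able to raise class II, and interferon gamma raises both classes. Nlrc5 switches on class I genes and its relative Ciita switches on class II genes, both through a shared promoter module of X and Y boxes.

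The 4 class II genes varied together and widely from library to library, and the 6 class I genes, Nlrc5 apart, varied less, but neither class differed between the groups beyond the spread of the libraries. Summed over the 4 class II genes, the level was 150.5, 44.3 and 17.1 CPM (counts scaled to a common library size, with a correction for library composition) in the libraries labelled sh2-Ift88 1, 2 and 3, against 116, 4.91 and 73.7 CPM in control 1, 2 and 3. Summed over the 6 class I genes it was 274, 219 and 250.1 CPM in the libraries labelled sh2-Ift88, against 368, 135 and 355 CPM in the controls. In both sums control 2 was the lowest library. The highest library was sh2-Ift88 1 for class II and control 1 for class I. The highest library was 30.6 times the lowest for class II and 2.72 times for class I.

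Total gene counts ran from 26802618 to 33772559 per library. Ift88 itself was at 14.7, 16.03 and 14.4 CPM in the libraries labelled sh2-Ift88 and at 13.8, 19.7 and 13.7 CPM in the controls. The interval of its fold change ran from 61.3% to 149% of the controls. The targeted transcript was thus not detectably lower with this scaling. The correction for library composition was a factor of 0.598 for sh2-Ift88 3 and of 1.05 to 1.24 for the other libraries. By library totals alone Ift88 was at 15.4, 17.5 and 8.62 CPM in the libraries labelled sh2-Ift88 and at 14.7, 21.8 and 16.9 CPM in the controls. The labels stand unchecked by this transcript, and each direction below is that of the libraries so labelled. In 3 libraries, sh2-Ift88 2, sh2-Ift88 3 and control 2, 387 to 564 olfactory receptor genes had at least 1 read, against 24 to 38 in the other 3. These genes are expressed mostly in the nose and are called silent below. Whether any of them was expressed here was not tested. Reads outside any gene took 31.9% to 39.5% of tallied reads in those 3 libraries and 18.8% to 25.6% in the others.

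**Figure D1:**
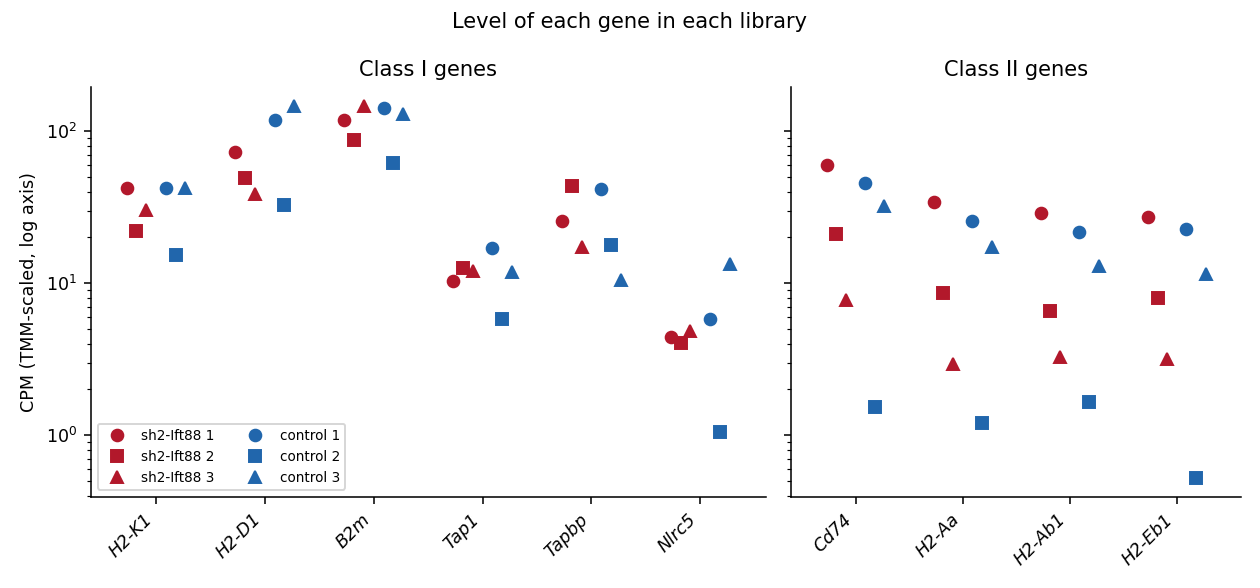
Level of each gene in each library, in CPM on a log axis. Red symbols are the libraries labelled sh2-Ift88 and blue symbols the controls, with the shape giving the library number. The class II genes repeat 1 pattern, with sh2-Ift88 1 on top and control 2 at the bottom in all 4 genes.

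Promoters of 7 of the 10 genes were matched by symbol in RefSeq's table for build GRCm38.p6: H2-K1, H2-D1, B2m, Tap1, Tapbp, H2-Aa and H2-Eb1. The counts were made on mm9, and no position was carried from one build to the other. The 200 bases before the annotated start are shown for 3 class I and 2 class II genes, because the boxes that bind the shared regulators lie there. Capitals mark matches on either strand to 6 motifs: the Y box core ATTGG, the X2 box core TGACG, the X1 box core TAGCAAC, the kappa B palindrome, the class I interferon element and a tandem interferon element. They lie at chr17:34000348-34000547 (minus strand) for H2-K1, chr17:35262894-35263093 (plus) for H2-D1, chr2:122147487-122147686 (plus) for B2m, chr17:34287824-34288023 (minus) for H2-Aa and chr17:34305667-34305866 (plus) for H2-Eb1. The H2-K1 row is the first of 2 starts listed for that gene.
H2-K1: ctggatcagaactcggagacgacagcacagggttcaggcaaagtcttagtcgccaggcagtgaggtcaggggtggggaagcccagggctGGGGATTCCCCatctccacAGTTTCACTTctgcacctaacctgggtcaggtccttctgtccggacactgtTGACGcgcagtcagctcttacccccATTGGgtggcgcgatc
H2-D1: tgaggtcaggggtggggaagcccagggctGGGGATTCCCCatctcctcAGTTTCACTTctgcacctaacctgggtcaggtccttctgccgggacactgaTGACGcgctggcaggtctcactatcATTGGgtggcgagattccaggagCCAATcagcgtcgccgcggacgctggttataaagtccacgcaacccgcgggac
B2m: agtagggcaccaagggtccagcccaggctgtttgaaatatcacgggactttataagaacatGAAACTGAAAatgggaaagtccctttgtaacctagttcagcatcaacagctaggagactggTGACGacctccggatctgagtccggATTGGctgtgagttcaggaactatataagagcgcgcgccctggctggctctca
H2-Aa: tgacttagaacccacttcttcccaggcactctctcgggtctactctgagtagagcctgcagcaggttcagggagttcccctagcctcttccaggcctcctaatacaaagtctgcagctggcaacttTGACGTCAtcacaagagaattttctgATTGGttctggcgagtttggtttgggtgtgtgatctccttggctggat
H2-Eb1: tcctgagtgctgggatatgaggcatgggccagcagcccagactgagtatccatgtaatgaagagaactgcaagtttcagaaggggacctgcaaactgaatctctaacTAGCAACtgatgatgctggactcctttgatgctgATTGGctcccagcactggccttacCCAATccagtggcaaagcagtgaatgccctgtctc

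The X2 and Y cores stood at a set spacing in 3 of the 5 matched class I genes, not Tap1 or Tapbp, and in 1 of the 2 class II genes. From the first base of TGACG to the first base of ATTGG there were 25 bases in H2-K1, H2-D1 and B2m and 26 bases in H2-Aa. Of all 32851 windows of 250 bases before a start, 0.152% held this pair at either spacing on either strand, 17.8% held TGACG and 33.8% held ATTGG. H2-Eb1 had no exact TGACG. It had the X1 core TAGCAAC, a separate motif, which 3.16% of windows held. In H2-Aa the TGACG of each strand overlaps the other as TGACGTCA. The kappa B palindrome, in 0.0304% of windows, and the class I interferon element, in 1.48%, were found in H2-K1 and H2-D1 among the 7, and the tandem interferon element, in 2.98%, in B2m. The class I windows held 8 to 14 CpG sites and the class II windows 3 in H2-Aa and 0 in H2-Eb1, where the median window held 6. These are matches of letters, and binding was not measured.

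Among the class I heavy chains, H2-K1 was at 42.2, 21.9 and 30.4 CPM in the libraries labelled sh2-Ift88 and at 42.3, 15.4 and 42.6 CPM in the controls. The lowest control was below all 3 libraries labelled sh2-Ift88, and the groups overlapped. The fitted log2 fold change of H2-K1 was -0.084 (SE 0.44), with an adjusted p of 0.9995 in edgeR's quasi-likelihood test. H2-D1, the second classical heavy chain, was at 72.9, 49.4 and 38.7 CPM in the libraries labelled sh2-Ift88 and at 118, 32.8 and 146 CPM in the controls. Control 1 and 3 were above every library labelled sh2-Ift88 and control 2 was below them all. Its log2 fold change of -0.88 (standard error 0.54, unadjusted p = 0.144, adjusted p = 0.9995) was the largest in size of the 10 genes, with a 95% confidence interval from -2.15 to 0.38.

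B2m, the light chain that every classical class I molecule needs, was at 118, 88.1 and 147 CPM in the libraries labelled sh2-Ift88 and at 143, 62.0 and 130.4 CPM in the controls. Its spread was the smallest of the 10, with the highest library at 2.37 times the lowest. It averaged 118 ± 29.4 CPM in the libraries labelled sh2-Ift88 and 112 ± 43.4 CPM in the controls (SD, n = 3 each), and the 95% confidence interval of its log2 fold change ran from -0.78 to 0.93. B2m thus had the narrowest interval among the 10, and even that interval allows a level between 58.2% and 190.4% of the controls.

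Tap1, a subunit of the peptide transporter, was at 10.4, 12.6 and 11.99 CPM in the libraries labelled sh2-Ift88 and at 17.1, 5.79 and 11.9 CPM in the controls. All 3 libraries labelled sh2-Ift88 lay inside the range of the controls. Tapbp, or tapasin, which bridges the transporter and the empty heavy chain, was at 25.6, 43.3 and 17.3 CPM in the libraries labelled sh2-Ift88 and at 41.7, 17.9 and 10.5 CPM in the controls. It was the only class I gene with its lowest value in control 3 and not in control 2.

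Nlrc5, the transactivator of class I genes, was at 4.41, 4.07 and 4.81 CPM in the libraries labelled sh2-Ift88 and at 5.78, 1.04 and 13.3 CPM in the controls. Its levels among the controls spanned 12.8-fold, both ends of the whole range, and the 3 libraries labelled sh2-Ift88 lay close together between them. The mean was 4.43 ± 0.372 CPM in the libraries labelled sh2-Ift88 and 6.72 ± 6.19 CPM in the controls (SD, n = 3 each). The fitted log2 fold change of Nlrc5 was -0.60 (SE 0.80), with an adjusted p of 0.9995 in edgeR's quasi-likelihood test.

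The class II genes kept the same order of libraries. Cd74, the invariant chain, was at 59.8, 21.2 and 7.75 CPM in the libraries labelled sh2-Ift88 and at 45.5, 1.53 and 32.1 CPM in the controls. H2-Aa, the alpha chain of I-A, was at 34.1, 8.64 and 2.94 CPM in the libraries labelled sh2-Ift88 and at 25.6, 1.20 and 17.3 CPM in the controls. H2-Ab1, its beta chain, was at 29.2, 6.59 and 3.25 CPM in the libraries labelled sh2-Ift88 and at 21.7, 1.66 and 12.9 CPM in the controls. In each of these genes the highest library was labelled sh2-Ift88 and the lowest was a control, with the others mixed between, so the groups overlapped.

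H2-Eb1, the beta chain of I-E, was at 27.4, 7.93 and 3.19 CPM in the libraries labelled sh2-Ift88 and at 22.8, 0.520 and 11.4 CPM in the controls. Its lowest level rests on 16 reads in control 2, against 753 reads in control 1. The highest library exceeded the lowest 52.6-fold for H2-Eb1, 39.2-fold for Cd74, 28.4-fold for H2-Aa and 17.6-fold for H2-Ab1, and 13.6% of all genes tested reached a 10-fold range. Nlrc5 was the only class I gene to reach it. A 3-fold range was reached by 7 of the 10 genes and by 40.4% of all genes.

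All 4 class II genes ranked the libraries sh2-Ift88 1, control 1, control 3, sh2-Ift88 2, sh2-Ift88 3 and control 2, from high to low. Of the 16768 genes tested, 14 had that order (0.0835%), the 4 class II genes among them. Another was H2-Ea-ps, the row of the I-E alpha chain, which is the partner of H2-Eb1. These 5 had the widest ranges of the 14, from 17.6-fold to 54.9-fold, and the next was Snora78, a small nucleolar RNA, at 5.42-fold. Across the 6 libraries Pearson's r between log2 levels of class II pairs ran from 0.963 to 0.997 over 6 pairs. For class I pairs it ran from -0.18 to 0.883 over 15 pairs, and for pairs of 1 gene from each class from 0.289 to 0.872 over 24 pairs. These values share libraries and depth and are given as a description.

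**Figure D2:**
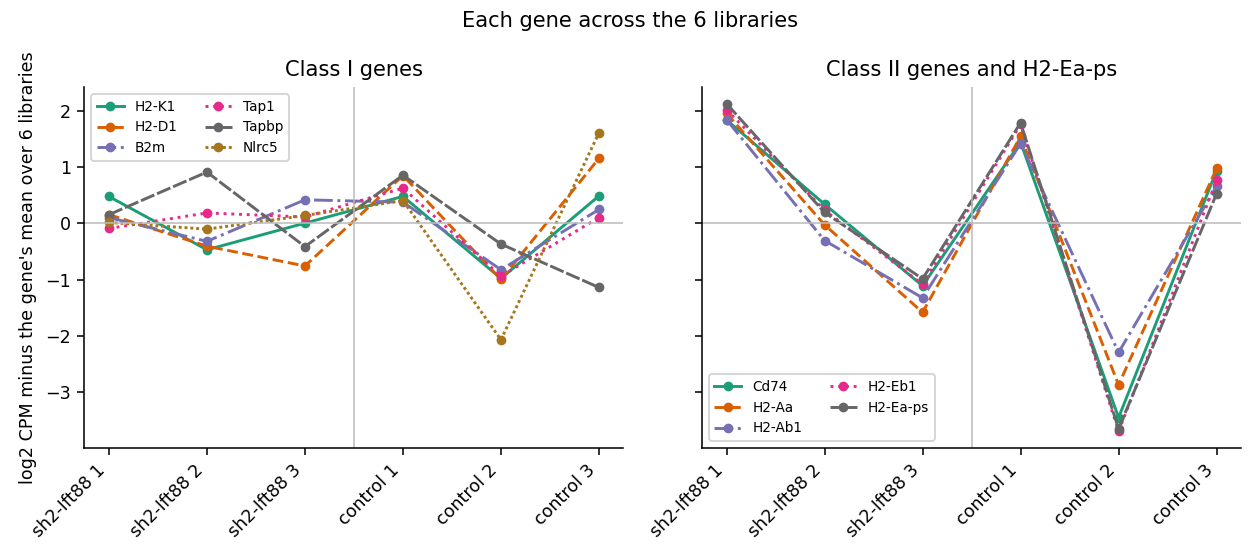
Log2 CPM of each gene minus its own mean over the 6 libraries. The lines only join the points of a gene, and the grey vertical line parts the libraries labelled sh2-Ift88 (left) from the controls (right). The class II lines and H2-Ea-ps rise and fall together, with pairwise r from 0.963 to 0.997 among the 4 class II genes. Their ranges differ, from 17.6-fold for H2-Ab1 to 52.6-fold for H2-Eb1 among the 4. The class I lines follow each other less closely.

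H2-Ea-ps is annotated as a polymorphic pseudogene: in the C57BL/6 reference strain the promoter of this gene is deleted, and other strains carry an intact copy. It was at 35.7, 9.34 and 4.12 CPM in the libraries labelled sh2-Ift88 and at 28.2, 0.650 and 11.8 CPM in the controls. Every library thus had reads of it. Its mean was 15.8 ± 16.3 CPM per kilobase of exon in the libraries labelled sh2-Ift88 and 13.07 ± 13.4 in the controls. The same measure for H2-Eb1 was 6.60 ± 6.59 in the libraries labelled sh2-Ift88 and 5.96 ± 5.73 in the controls (SD, n = 3 each). The labels name no strain. The effect of H2 alleles that differ from the reference on the counts of this row and of H2-K1, H2-D1, H2-Aa, H2-Ab1 and H2-Eb1 was not tested, so levels of these genes hold only as counted on mm9.

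Compared per kilobase of merged exon length (GENCODE M21), B2m was the highest of the 10 genes, at 137 ± 34.2 CPM per kilobase in the libraries labelled sh2-Ift88 and 129.9 ± 50.5 in the controls (SD, n = 3 each). H2-D1 followed in the means, at 20.8 ± 6.78 in the libraries labelled sh2-Ift88 and 38.4 ± 22.8 in the controls, then Cd74 at 17.6 ± 16.1 in the libraries labelled sh2-Ift88 and 15.7 ± 13.4 in the controls. H2-K1 was at 10.7 ± 3.48 in the libraries labelled sh2-Ift88 and 11.4 ± 5.31 in the controls. In the order of means over all libraries, B2m, H2-D1, Cd74, H2-K1, Tapbp, H2-Eb1, H2-Ab1, H2-Aa, Tap1 and Nlrc5, neighbours kept their order in 6 of 6 libraries for B2m over H2-D1, H2-Ab1 over H2-Aa and Tap1 over Nlrc5. The other neighbours changed places in at least 1 library. The order of H2-Ab1 over H2-Aa rests on the merged lengths, 2568 bases for H2-Ab1 and 3798 for H2-Aa. Their longest coding transcripts have 1212 and 1128 bases. In CPM not divided by length, H2-Aa was above H2-Ab1 in sh2-Ift88 1, sh2-Ift88 2, control 1 and control 3. Tap1, at 2.13 ± 0.206 in the libraries labelled sh2-Ift88 and 2.12 ± 1.03 in the controls, and Nlrc5, at 0.522 ± 0.0438 in the libraries labelled sh2-Ift88 and 0.791 ± 0.729 in the controls, were lowest.

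On this per-length scale the balance of the classes varied from library to library. The median class II gene was at 1.19, 0.342 and 0.192 times the median class I gene in the libraries labelled sh2-Ift88 1, 2 and 3, and at 0.780, 0.0948 and 0.628 times in control 1, 2 and 3. By these medians class II exceeded class I in sh2-Ift88 1 and was 10.6-fold below it in control 2. The class I median takes in Nlrc5, Tap1 and Tapbp, at 0.520, 1.90 and 7.07 CPM per kilobase in sh2-Ift88 1. In that library B2m (137), H2-D1 (28.3) and H2-K1 (14.4) were above H2-Eb1 (14.1), H2-Ab1 (11.4) and H2-Aa (8.98). Cd74 was at 35.6 there, above both class I heavy chains. As a mean of log2 CPM over genes, class II minus class I was 0.38, -1.30 and -2.59 in the libraries labelled sh2-Ift88 and -0.46, -3.45 and -0.97 in the controls. The groups overlapped and their means differed by 0.45, against an SD of 1.49 among libraries labelled sh2-Ift88 and 1.60 among controls. Without control 2 that difference turned to -0.46, and without sh2-Ift88 1 to -0.32.

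None of the 10 genes was called between the groups. With edgeR's quasi-likelihood test and Benjamini-Hochberg adjustment over all genes tested, 0% of genes passed 0.05 as higher and 0% as lower, and no gene had an adjusted p under 0.9995. At an unadjusted p of 0.05, 330 genes were higher (1.97%) and 211 lower (1.26%), with 0 of the 10 among them. The libraries labelled sh2-Ift88 lay wholly above the controls for 4.7% of genes and wholly below for 3.69%, 8.39% in all, and for 0 of the 10. DESeq2 called 58 genes (0.346%) and 0 of the 10, and limma-voom called 0 genes.

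The fitted log2 fold change was below 0 for 3 of the 10 genes and for 51.3% of all genes. For the class II genes it was 0.17 for Cd74, 0.055 for H2-Aa, 0.11 for H2-Ab1 and 0.15 for H2-Eb1, and with library totals alone, which moved the median of all genes to -0.33, H2-Aa and H2-Ab1 were below 0. All 4 were below 0 when sh2-Ift88 1 was left out, and likewise when control 2 was left out, Cd74 being at -0.89 without sh2-Ift88 1 and at -0.39 without control 2. The class II intervals were wide, and that of Cd74 ran from -2.42 to 2.76. For the class I genes outside the heavy chains and Nlrc5 it was 0.074 for B2m, 0.0075 for Tap1 and 0.30 for Tapbp. A difference of several fold in class II was thus not detectable with these libraries.

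**Figure D3:**
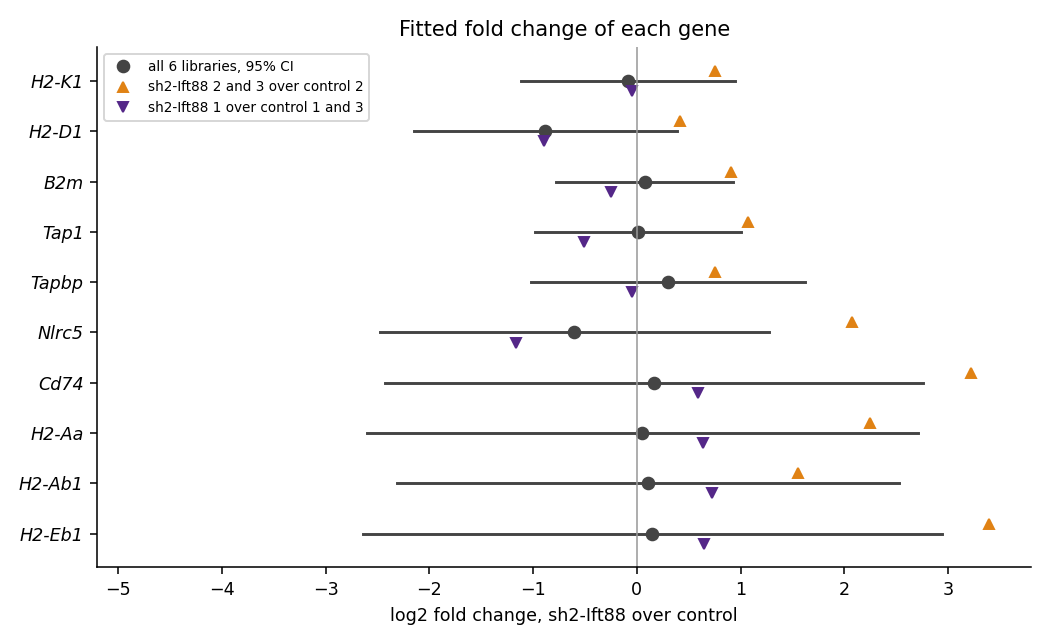
Fitted log2 fold change of each gene, sh2-Ift88 over control. Black points and bars are all 6 libraries with the 95% confidence interval, and triangles are fits within the libraries with (orange) and without (purple) reads of silent olfactory genes. Every interval crosses 0, and the class II points within both sets lie above 0, which the order of the libraries fixes.

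The libraries with reads of silent genes were the low ones for 6 of the 10 genes. In H2-K1, H2-D1, Cd74, H2-Aa, H2-Ab1 and H2-Eb1, sh2-Ift88 2, sh2-Ift88 3 and control 2 all lay below the other 3 libraries, as they did for 5.04% of all genes. They lay above the other 3 for 5.65% of genes and for 0 of the 10. The summed class II level was 4.91 to 44.3 CPM in those 3 libraries and 73.7 to 150.5 CPM in the others. Control 2 alone was the lowest library for 9 of the 10 genes and for 11.1% of all genes. The part of these reads in the levels was not tested.

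Within each of these sets of libraries the direction for class II is fixed by the library order given above and adds nothing to it. For sh2-Ift88 2 and 3 over control 2, the log2 fold change was 3.22 for Cd74, 2.25 for H2-Aa, 1.55 for H2-Ab1 and 3.39 for H2-Eb1. For sh2-Ift88 1 over control 1 and 3 it was 0.59, 0.64, 0.72 and 0.65 in the same order of genes. A single library stands in 1 arm of each, and its spread is taken from the other arm. In the first set all 6 class I genes were also above 0, with a median of 0.83, and 6058 of 17732 genes tested there had the libraries labelled sh2-Ift88 wholly above control 2. With a term for such reads over all 6 libraries it was 1.89, 1.44, 1.15 and 1.97, with unadjusted p from 0.0537 to 0.0719 and an adjusted p of 1 for each gene (edgeR's quasi-likelihood test).

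Macrophage genes matched the class II order in some libraries and not in others. Of 28 listed markers of microglia and macrophages, 27 were found, all with a read in every library. Their summed level was 539.7, 359 and 192 CPM in the libraries labelled sh2-Ift88 and 333, 402 and 442 CPM in the controls. The library sh2-Ift88 1 was highest for 11 of the 27 (40.7%, against 17.9% of all genes), as it was for class II, and sh2-Ift88 3 was lowest for 22 (81.5%, against 14.4%). Control 2, lowest for class II, was above control 1, sh2-Ift88 2 and sh2-Ift88 3 for these markers, and control 1, second highest for class II, was second lowest. Csf1r, the receptor that keeps macrophages alive, was at 38.4, 23.4 and 4.37 CPM in the libraries labelled sh2-Ift88 and at 13.1, 20.03 and 26.4 CPM in the controls. It was chosen after its values were seen, as was Ciita below. Tmem119 and Lyz2, among the markers of highest mean level, were at 67.8 and 50.8 CPM over all 6 libraries. In bulk tissue, fewer cells of a type and less RNA per cell cannot be told apart.

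Markers of B cells were low, and those of dendritic cells were mixed. The 9 B cell markers summed to between 1.69 and 5.83 CPM in the libraries labelled sh2-Ift88 and between 2.67 and 3.58 CPM in the controls, and 6 of them, Ms4a1 among them, were at 0 in at least 1 library. Ighm, their highest, was at 3.91, 1.75 and 0 CPM in the libraries labelled sh2-Ift88 and at 1.91, 1.04 and 1.68 CPM in the controls. The 10 dendritic cell markers summed to between 155 and 193 CPM in the libraries labelled sh2-Ift88 and between 127 and 166 CPM in the controls. Fscn1, an actin-bundling protein found in many tissues, gave most of that sum, at a mean of 138 CPM. Zbtb46, a factor of dendritic cells that is also made elsewhere, was at 11.3, 25.8 and 17.1 CPM in the libraries labelled sh2-Ift88 and at 21.7, 20.2 and 11.05 CPM in the controls. Batf3, another marker on that list, was at 2.32, 0.907 and 2.12 CPM in the libraries labelled sh2-Ift88 and at 1.15, 1.56 and 5.49 CPM in the controls. Clec9a and Cd209a, which are closer to dendritic cells alone, were at 0 in at least 1 library. The 17 markers of T and NK cells summed to between 2.57 and 3.50 CPM in the libraries labelled sh2-Ift88 and between 2.0 and 3.71 CPM in the controls, with 10 of them at 0 in at least 1 library. The part of each cell type in the class II level was not tested.

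**Figure D4:**
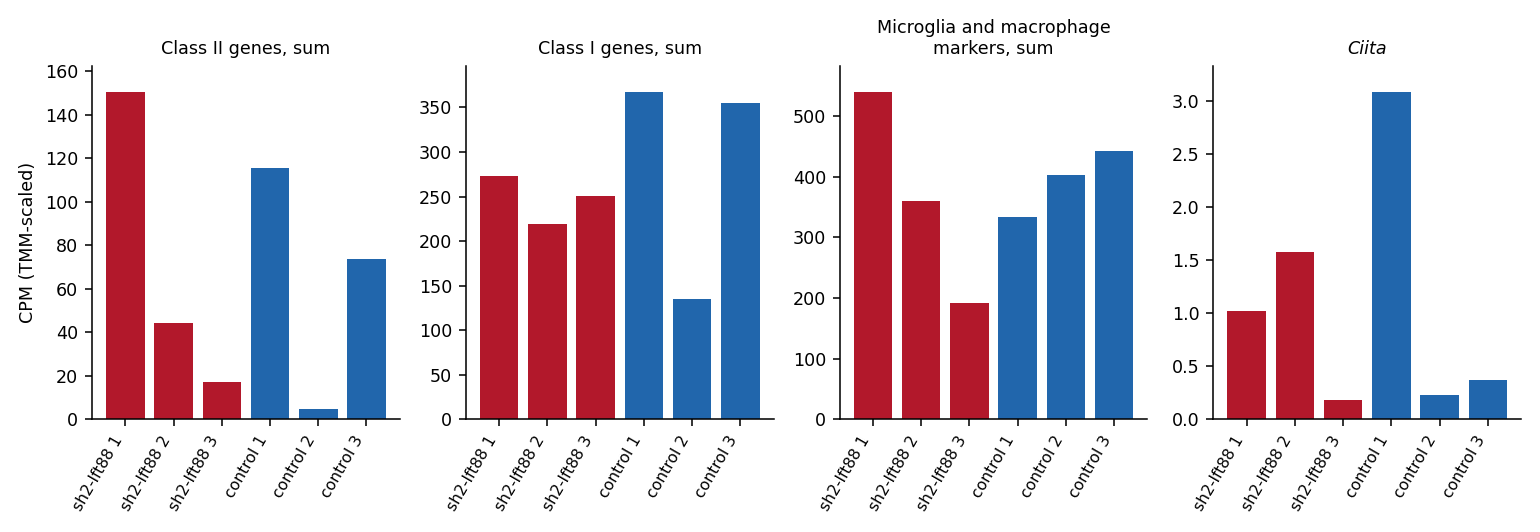
Summed level of the 4 class II genes, the 6 class I genes and 27 microglia and macrophage markers, and the level of Ciita, in CPM per library on axes that start at 0. Red bars are the libraries labelled sh2-Ift88 and blue bars the controls. Control 2 has 4.91 CPM of class II beside 402 CPM of macrophage markers.

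Ciita, the transactivator of class II genes, was at 1.02, 1.58 and 0.187 CPM in the libraries labelled sh2-Ift88 and at 3.09, 0.228 and 0.371 CPM in the controls. Its order differed from that of the class II genes: sh2-Ift88 1, highest for all 4, was below control 1 and sh2-Ift88 2 for Ciita, and control 3 held 32.1 CPM of Cd74 with 0.371 CPM of Ciita. These Ciita levels rest on few reads, 3 in sh2-Ift88 3, fewer than 8 in control 2 and fewer than 16 in control 3. The order of its lowest libraries is thus uncertain. Ifng, which encodes interferon gamma, had 0, 1 and 2 reads in the libraries labelled sh2-Ift88 and 3, 2 and 0 in the controls. Of the 28 listed regulators of these genes, 25 were tested, and 9 were higher and 16 lower, with 0 called and a median log2 fold change of -0.12, where the median of all genes was -0.012. Without control 1, 13 were higher and 12 lower, and the median was 0.0055. Those of smallest p were Irf8, a factor of myeloid cells, Ifngr1, a receptor chain for interferon gamma, and Atf1. Irf8 was at 11.7, 4.64 and 12.9 CPM in the libraries labelled sh2-Ift88 and at 4.69, 5.59 and 4.92 CPM in the controls, so sh2-Ift88 2 lay below every control. Ifngr1 was at 43.1, 20.1 and 25.1 CPM in the libraries labelled sh2-Ift88 and at 20.5, 13.9 and 20.3 CPM in the controls. Atf1, a factor of the family that binds the X2 box, was higher in every library labelled sh2-Ift88 (34.8 to 55.5 CPM) than in every control (27.2 to 33.05 CPM). By library totals alone the groups overlapped for Atf1, with 575 reads in 26802618 in sh2-Ift88 3 and 845 in 27876540 in control 2. None of these 3 passed, with unadjusted p between 0.0794 and 0.0882.

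The groups were separate for 1 of the 13 tested genes of class II presentation, and for 8.39% of all genes. This gene, Ifi30, a reductase that opens disulphide bonds of antigens in lysosomes, was at 24.02, 24.9 and 19.9 CPM in the libraries labelled sh2-Ift88 and at 15.1, 15.5 and 15.9 CPM in the controls. All 3 libraries labelled sh2-Ift88 lay above all 3 controls. The log2 fold change of Ifi30 was 0.57 (SE 0.23, unadjusted p = 0.0447, adjusted p = 0.9995) in edgeR's quasi-likelihood test. This separation depends on the scaling factor of 0.598 for sh2-Ift88 3. That library had 319 reads of Ifi30 in a total of 26802618, and control 2 had 478 in 27876540. By library totals alone sh2-Ift88 3 was thus below control 2, and the groups overlapped. Of 18 listed genes 13 were tested, and 9 were higher and 4 lower with 0 called (5 and 8 with library totals alone). Without sh2-Ift88 1, 3 were higher and 10 lower, with a median log2 fold change of -0.14 in place of 0.22, and without control 2, 6 were higher and 7 lower. H2-DMb1, a subunit of the H2-DM peptide editor, was at 18.8, 9.74 and 15.3 CPM in the libraries labelled sh2-Ift88 and at 22.2, 5.04 and 2.74 CPM in the controls, so it was low in control 3, where Cd74 was not. Cd40, a costimulatory receptor, averaged 2.82 ± 2.20 CPM in the libraries labelled sh2-Ift88 and 1.17 ± 0.681 CPM in the controls. Ctss, a protease that cuts the invariant chain, averaged 21.8 ± 14.8 CPM in the libraries labelled sh2-Ift88 and 34.2 ± 15.02 CPM in the controls (SD, n = 3 each).

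Among the other class I heavy chains and their relatives, 13 of 18 tested genes were higher and 5 lower, with 0 called and a median log2 fold change of 0.20 (8 and 10, and -0.13, with library totals alone). Without control 2, 8 were higher and 11 lower, and the median was -0.065. H2-Q7, a nonclassical chain, was at 3.79, 1.58 and 5.75 CPM in the libraries labelled sh2-Ift88 and at 1.39, 1.56 and 0.742 CPM in the controls. Fcgrt, the neonatal Fc receptor, which pairs with beta-2 microglobulin and carries antibodies, was at 77.02, 67.1 and 56.9 CPM in the libraries labelled sh2-Ift88 and at 56.6, 46.2 and 31.8 CPM in the controls. These were the only 2 of the 18 whose groups were separate, where 8.39% of all genes were. Neither passed in edgeR's quasi-likelihood test (unadjusted p of 0.0394 for H2-Q7 and 0.0741 for Fcgrt). By library totals alone the groups overlapped for Fcgrt, with 911 reads in 26802618 in sh2-Ift88 3 and 1868 in 30965187 in control 1. H2-Q6 averaged 3.71 ± 2.37 CPM in the libraries labelled sh2-Ift88 and 1.70 ± 0.624 CPM in the controls. H2-M5 averaged 1.11 ± 0.642 CPM in the libraries labelled sh2-Ift88 and 0.600 ± 0.537 CPM in the controls (SD, n = 3 each).

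The 25 genes of class I peptide supply, all tested, were higher in 6 cases and lower in 19, with 0 called and a median log2 fold change of -0.17 (3 and 22, and -0.47, with library totals alone). Without control 1, 15 were higher and 10 lower, and the median was 0.12. Tpp2, a cytosolic peptidase, was at 117, 94.7 and 121 CPM in the libraries labelled sh2-Ift88 and at 164, 132 and 124 CPM in the controls. It was the only gene of the 25 whose groups were separate (unadjusted p = 0.188), where 3.69% of all genes were separate in that direction. Psme3, an activator of the proteasome, averaged 45.02 ± 6.57 CPM in the libraries labelled sh2-Ift88 and 62.05 ± 16.6 CPM in the controls (SD, n = 3 each). Psmb5, a catalytic subunit of the standard proteasome, averaged 30.1 ± 8.04 CPM in the libraries labelled sh2-Ift88 and 38.4 ± 7.25 CPM in the controls. Lnpep, a membrane aminopeptidase, averaged 108 ± 23.1 CPM in the libraries labelled sh2-Ift88 and 135 ± 32.1 CPM in the controls. Control 1 was the highest library for 15 of the 25 genes (60%), where it was highest for 17.8% of all genes.

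**Figure D5:**
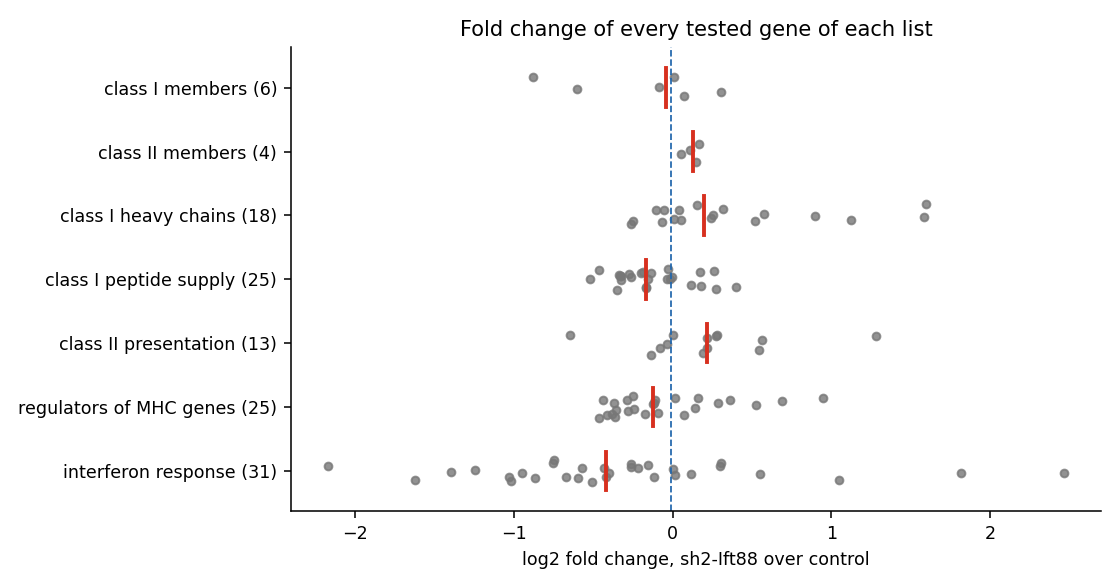
Log2 fold change, sh2-Ift88 over control, of every tested gene of each list, with the number of tested genes in brackets. Red bars are list medians and the dashed blue line is the median of all 16768 genes tested, at -0.012. The class II genes lie close together beside 0, and single genes of the other lists spread on both sides.

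Of 32 listed interferon response genes, 31 were tested, and 9 were higher and 22 lower, with 0 called and a median log2 fold change of -0.42, where the median of all genes was -0.012 (6 and 25 with library totals alone), and the list's median was -0.21 without control 1. Control 1 was highest for 15 of the 31 (48.4%, against 17.8% of all genes) and sh2-Ift88 3 lowest for 15 (48.4%, against 14.4%). Gbp2, a guanylate-binding protein that answers to interferon gamma, was at 4.07, 6.42 and 2.81 CPM in the libraries labelled sh2-Ift88 and at 19.7, 5.14 and 6.80 CPM in the controls. Isg15, a ubiquitin-like modifier, was at 1.02, 0.773 and 0.812 CPM in the libraries labelled sh2-Ift88 and at 2.45, 1.76 and 1.14 CPM in the controls, with every library labelled sh2-Ift88 below every control and an unadjusted p of 0.0851. Oas1a and Usp18 went the other way in the means, and their groups overlapped. Oas1a averaged 15.4 ± 14.2 CPM in the libraries labelled sh2-Ift88 and 2.78 ± 3.23 CPM in the controls. Usp18 averaged 15.07 ± 13.2 CPM in the libraries labelled sh2-Ift88 and 4.26 ± 3.06 CPM in the controls (SD, n = 3 each). Oas1a had the smallest unadjusted p of the list, 0.0450 (log2 fold change 2.47, adjusted p = 0.9995, edgeR's quasi-likelihood test). Its highest library was sh2-Ift88 3, at 31.7 CPM.

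The genes whose levels were most like those of each class were picked by Pearson's r of log2 levels with the class mean over the 6 libraries, among 11718 genes with a mean of at least 5 CPM. For class II these were H2-Ea-ps (0.993), Slc25a39 (0.981), a mitochondrial carrier, Fasn (0.978), the fatty acid synthase, Col1a1 (0.960), a chain of collagen I, and the small nucleolar RNA snoU6-77 (0.956). Of these, H2-Ea-ps had the range of the class II genes, and Col1a1 was at 388 CPM in sh2-Ift88 1 and 92.7 CPM in control 2. For class I they were A830039N20Rik (0.996), Wdr24 (0.988), Spn (0.985), the leukocyte sialoglycoprotein CD43, Kcnma1 (0.980), a potassium channel, and Yipf4 (0.978). Spn was at 19.04, 17.6 and 15.1 CPM in the libraries labelled sh2-Ift88 and at 34.3, 4.78 and 21.01 CPM in the controls. These r values are a description over 6 libraries.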

How the data were processed

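The members and gene lists were chosen with earlier results of these data known. Per the labels' protocols, the TruSeq Stranded Total RNA kit was used. BWA and build mm9 are named per the submitters' processing notes. Which counter, annotation and strand setting were used is not given in the sources used here. Each deposited table holds the raw counts of 1 library, with 34591 gene rows and 5 closing tallies kept out of all sums and tests. Tallies for reads outside any gene took 18.8% to 39.5% of reads, for ambiguous reads 0.876% to 4.37% and for unaligned reads 2.93% to 10.2%.

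The test was edgeR 4.0.16 under R 4.3.3 (filterByExpr, TMM factors, glmQLFit with robust=TRUE, glmQLFTest, two-sided, Benjamini-Hochberg over 16768 genes), sh2-Ift88 over control, with no covariate. The fit was tested on simulated data. CPM use TMM-scaled library sizes. The standard error is the log2 fold change over the root of F. Per-kilobase levels divide CPM by merged exon length in GENCODE M21, used for lengths and names only. A share of the 50-base words of H2-K1 (8.79%), H2-D1 (14.3%), Tap1 (6.47%) and Tapbp (21.0%) also occurs in transcripts of other genes, so their counts are uncertain. The other 6 genes shared 0. Members of the H2-Q and H2-T families are uncertain in the same way. Replicate numbers follow accession order and pair no samples.

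Named genes were Ift88, all members, the 4 genes of smallest p per pathway list, genes of highest mean level per cell type list, and the 5 most alike per class. Csf1r, Ciita, Ifng, Snora78, Ms4a1, Clec9a and Cd209a were picked after seeing their values. Some genes that the rule names are not reported here. Results of the lists for neutrophils, endothelium, neurons and WNT genes are given with the other observations. Alternatives were DESeq2 1.42.0, limma-voom (limma 3.58.1), other scalings and filters, robust=FALSE, each library left out in turn, and a term for, or fits within, libraries in which more than 100 olfactory receptor genes had a read.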

Additional observations from a re-analysis of the deposited data

How the results depend on the processing

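Under 16 alternatives, 0 of the 10 genes were called in each. The number of genes called was 58 with DESeq2 and 6 without a filter, and 0 in the other 14. No paired analysis was possible because replicate numbers were given in accession order. The directions of the 10 genes were not stable: the log2 fold change changed sign in 35 of 160 refits, none of them called, and the cause was not tested. With libraries left out in turn it ran from -0.43 to 0.12 for H2-K1, -1.30 to -0.50 for H2-D1, -0.22 to 0.29 for B2m, -0.32 to 0.39 for Tap1, -0.12 to 1.02 for Tapbp, -1.11 to 0.37 for Nlrc5, -0.89 to 0.82 for Cd74, -1.36 to 0.72 for H2-Aa, -1.32 to 0.84 for H2-Ab1 and -1.08 to 1.10 for H2-Eb1. All 4 class II genes were below 0 without sh2-Ift88 1 and without control 2. Tap1 was at -0.017 with DESeq2 size factors and with DESeq2, and at -0.045 without a filter. H2-K1 was at 0.0026 with limma-voom. With library totals alone, where the median of all genes was -0.33, B2m and Tap1 were at -0.31, H2-Aa at -0.091 and H2-Ab1 at -0.044. With a term for reads of silent genes, H2-K1 was at 0.38 and Nlrc5 at 0.46. Within the libraries with such reads H2-K1 was at 0.76, H2-D1 at 0.41 and Nlrc5 at 2.08, and within the others B2m was at -0.25, Tap1 at -0.51 and Tapbp at -0.045. Class II minus class I differed between the groups by -0.46 to 1.16 with libraries left out in turn, and by 0.097 with medians over genes. The lowest class II levels rest on 16 to 51 reads per gene in control 2.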

Other observations

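Other cell types and tumour genes showed their own patterns across the libraries. Mature neuron markers, 11 of them found, summed to 240.2, 176 and 33.7 CPM in the libraries labelled sh2-Ift88. In the controls they summed to 55.1, 185 and 580.3 CPM. Control 1, second highest for class II, was second lowest in this sum. Marker by marker, control 1 was lowest for 9 of the 11 (81.8%, against 17.6% of all genes) and sh2-Ift88 3 for 2. Endothelial markers, on cells that carry class I in most tissues, summed to 189, 184 and 117 CPM in the libraries labelled sh2-Ift88 and to 193, 156 and 107 CPM in the controls, led by Flt1, Kdr and Tie1. Neutrophil and monocyte markers summed to 2.15 to 4.64 CPM in the libraries labelled sh2-Ift88 and to 2.67 to 5.84 CPM in the controls, with 5 of 10 at 0 in at least 1 library. The 10 WNT tumour genes summed to 5114, 3831 and 4513 CPM in the libraries labelled sh2-Ift88 and to 5819, 3114 and 3599.6 CPM in the controls, led by Wif1, Apcdd1 and Nkd1.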
